A study of Rattus norvegicus with 176 samples.

Results

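Ifitm1, Ifitm3, Irf1, Psmb8, Psmb9, Cd74 and RT1-Ba, 7 genes of the interferon response and of antigen presentation, were followed through a long study of clofibric acid in the liver of F344 rats, an inbred laboratory strain. They are 7 of the 10411 genes, and 8 of the 15922 probe sets, on the Affymetrix array used. The genes were chosen by name, with earlier results of these data known. Every probe set that the array annotation gives to 1 of them is described. RT1-Ba has 2 probe sets and the other genes have 1 each. The study measured 176 liver sections, 1 array per section. Of these, 148 sections carry no tag and come from 148 rats in 30 groups of 3 to 6, while 23 sections are tagged TU and 5 are tagged PERI.

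The groups differ in treatment and time. Control rats were measured at -8, 5j, 1m, 3m, 9m, 12m and 18m, and rats given clofibric acid (CA) at 5j, 1m, 3m, 9m, 12m and 18m. Rats of the DEN arm were measured at -8, 5j, 1m, 3m, 9m and 12m, and rats of the DEN-CA arm, which carry both names, at 5j, 1m, 3m, 9m and 12m. Further groups carry the word rev: control and CA at 18m, control and DEN-CA at 12m, and DEN at 12 without a unit, which is written 12m here. A last CA group is labelled 18 with no unit and is kept apart from CA 18m as CA 18. The labels spell out neither j, rev, TU, PERI, DEN nor the unit of -8. The titles give 5000 ppm of CA for all sections, controls included, so the dose of no group is certain. All groups share the F344 strain, and age and sex are not given in the sources used here.

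Interferons bind receptors on the cell surface and, through Janus kinases and STAT proteins, switch on a large set of genes. Irf1 is a transcription factor that is itself induced by interferon gamma and drives many of these genes. Ifitm1 and Ifitm3 are small interferon-induced membrane proteins that hinder the entry of viruses into cells. Psmb8 and Psmb9 are catalytic subunits of the immunoproteasome, the form of the proteasome that cuts proteins into peptides for MHC class I molecules. RT1-Ba is the alpha chain of an MHC class II molecule of the rat, and Cd74, the invariant chain, escorts class II molecules to the compartment where they are loaded. In a healthy liver class II molecules are found mainly on Kupffer cells, dendritic cells and other immune cells rather than on hepatocytes. Clofibric acid is a fibrate, a drug that activates the nuclear receptor PPAR alpha in hepatocytes. In liver sections measured as a whole, fewer cells of a type and less RNA per cell cannot be told apart.

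The genes sit at 4 places of the rat genome (RefSeq, GRCr8). Ifitm1 (chr1:205496757-205498796) and Ifitm3 (chr1:205540649-205541758) are neighbours. Psmb8 (chr20:4654068-4657049), Psmb9 (chr20:4668952-4674421) and RT1-Ba (chr20:4577057-4581650) lie in the MHC region. Irf1 lies at chr10:38417935-38424946 and Cd74 at chr18:56527071-56536406. The promoter sequences below are shown because Ifitm3, Irf1, Psmb8 and Cd74, the genes with a window here that fell with CA at 1m, can be set beside Psmb9, an immunoproteasome gene that did not pass the test for CA at any time. Each is the RefSeq window of 250 bases before to 50 after the start site that the promoter table uses (GRCr8). For Psmb8, Psmb9 and Cd74 that site lies inside the gene's extent given above, not at its end. Sequences are written 5′ to 3′ on the strand of the gene, with motif matches in capitals. The Ifitm3 window is chr1:205541709-205542008, minus strand. That of Irf1 is chr10:38417685-38417984, plus strand, and that of Psmb8 is chr20:4656982-4657281, minus strand. Psmb9 has chr20:4668750-4669049, plus strand, and Cd74 has chr18:56526956-56527255, plus strand.
Ifitm3: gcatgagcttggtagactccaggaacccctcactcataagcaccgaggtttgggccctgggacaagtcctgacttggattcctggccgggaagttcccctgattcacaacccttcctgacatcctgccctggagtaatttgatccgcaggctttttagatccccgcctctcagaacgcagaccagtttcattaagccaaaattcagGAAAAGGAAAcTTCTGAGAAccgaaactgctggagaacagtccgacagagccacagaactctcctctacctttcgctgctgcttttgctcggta
Irf1: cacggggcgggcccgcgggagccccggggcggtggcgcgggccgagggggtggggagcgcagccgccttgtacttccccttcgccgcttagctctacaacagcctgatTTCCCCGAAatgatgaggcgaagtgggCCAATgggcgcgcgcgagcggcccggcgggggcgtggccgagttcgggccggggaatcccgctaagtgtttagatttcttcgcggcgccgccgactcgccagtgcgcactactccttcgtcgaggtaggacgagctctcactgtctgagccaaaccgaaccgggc
Psmb8: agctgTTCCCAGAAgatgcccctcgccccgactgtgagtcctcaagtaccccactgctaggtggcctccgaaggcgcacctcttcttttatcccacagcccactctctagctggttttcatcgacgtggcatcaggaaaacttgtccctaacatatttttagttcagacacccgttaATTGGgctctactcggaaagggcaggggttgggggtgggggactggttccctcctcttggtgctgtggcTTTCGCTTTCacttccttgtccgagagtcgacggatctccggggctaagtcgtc
Psmb9: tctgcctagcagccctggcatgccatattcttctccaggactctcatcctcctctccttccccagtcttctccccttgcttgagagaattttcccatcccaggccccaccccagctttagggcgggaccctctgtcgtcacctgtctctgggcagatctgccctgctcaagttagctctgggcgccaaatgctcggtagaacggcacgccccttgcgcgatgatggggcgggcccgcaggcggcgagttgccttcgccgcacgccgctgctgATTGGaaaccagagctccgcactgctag
Cd74: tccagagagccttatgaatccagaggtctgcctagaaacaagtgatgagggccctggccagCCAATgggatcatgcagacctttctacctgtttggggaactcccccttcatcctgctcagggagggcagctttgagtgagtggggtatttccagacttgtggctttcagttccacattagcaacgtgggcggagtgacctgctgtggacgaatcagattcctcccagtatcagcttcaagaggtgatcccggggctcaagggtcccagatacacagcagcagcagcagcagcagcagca

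5 motifs were searched on both strands in the 6 genes with a window in the table, which are these 5 and RT1-Ba; Ifitm1 was not searched. The core of the interferon-stimulated response element, GAAANNGAAA, stood in the Ifitm3 window from -44 to -35 and in the Psmb8 window from -4 to 6 on the minus strand. It was found in 3.92% of all 33469 promoter windows. The STAT motif TTCNNNGAA stood in Ifitm3 (-33 to -25), Irf1 (-142 to -134) and Psmb8 (-245 to -237), against 8.87% of all windows. The short CCAAT box was present in Irf1, Psmb8, Psmb9, Cd74 and RT1-Ba, and in 37.5% of all windows. The class II X box, searched as CNAGNNACNGATG (0.206% of windows), was in none of the 6 windows. Neither was the direct repeat AGGTCANAGGTCA that PPAR alpha is known to bind (0.0538%). Both patterns are rare in all windows, so their absence from 6 says little. Looser forms of either were not searched, so the genes cannot be said to lack them. Positions count from the start site of the window, and no match overlapped another. A match is a run of letters and was not tested as a binding site. RT1-Ba, which passed for CA only after DEN, has a window that is not printed. Whether matches go with the response of a gene to CA was not tested.

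Values are scaled intensities: each array was brought to the same median, 99.35, from medians between 25.35 and 187.25. On this scale the 7 main probe sets exceeded the 40th percentile of the array in all 176 cases. The second RT1-Ba probe set (1377334_at) was dim: it passed that level on 46 of 176 arrays and its intensity ran from 8.11 to 133, so its values are close to background. Hepatocyte markers (7 genes) summed to between 35933 and 154046 per section, so all sections carry liver RNA. The listed markers of B cells (1 tested) and dendritic cells (3 tested) were too few to follow these cells. Some sections stand apart. The 9 cytotoxic lymphocyte markers summed to 23072 in control rev rat 4043, 12610 in DEN-CA rev rat 4111 and 9946 in control 18m rat 4040, and to at most 4911 in any other section. In CA rat 4137 at 12m the untagged section differed from its own TU section in the opposite direction to most other rats. Calls of members that changed without these rats are given with and without them. 46 untagged sections carry a suffix B in their title, which the labels do not explain.

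The leading comparison sets CA rats against control rats at each time. Tests are limma's moderated test on log2(intensity + 25) over all 148 untagged sections, two-sided, with Benjamini-Hochberg adjustment over 12393 probe sets and a threshold of 0.05. Differences are on that log2 scale ± SE. Of 48 values (8 probe sets at 6 times), 18 were lower in CA rats and none was higher. Of all tested probe sets, 11.2% passed at 5j, 14.4% at 1m, 14.2% at 3m, 6.78% at 9m, 11.7% at 12m and 6.79% at 18m. Among the 8 member probe sets, 1 passed at 5j, 5 at 1m, 5 at 3m, 2 at 9m, 2 at 12m and 3 at 18m. Without scaling of the arrays, the count was 0 at 5j, 8 at 3m and 1 (Ifitm3) at each of 1m, 9m, 12m and 18m, and the median of all probe sets at 3m was -0.71. The labels do not say whether rats of a group were housed or processed together. The p-values rest on the spread between rats within groups, pooled over all 30 groups, and do not cover such differences. With only the groups of the contrast in the fit, the calls of Ifitm3 at 5j, Ifitm1 at 3m, Irf1 at 9m and Cd74 at 18m did not hold.

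Ifitm3 fell at all 6 times. At 5j its intensities were 1325, 1676, 1938, 2051 and 2128 in control rats and 614, 1046, 1284, 1469 and 1511 in CA rats, and the groups overlapped. At 1m they were 1028, 1509, 1694, 1714 and 1929 in controls and 417, 432, 530.5, 567 and 649 in CA rats, with no overlap. The 1m means were 1575 ± 340.0 (SD, n = 5) and 519 ± 96.5 (SD, n = 5), a 2.92-fold lower level on the fitted scale. The log2 difference was -0.66 ± 0.21 (adjusted p = 0.026) at 5j, -1.54 ± 0.21 (adjusted p = 4.8e-09) at 1m and -1.72 ± 0.21 (adjusted p = 9.7e-11) at 3m. It stayed near that size later, at -1.70 ± 0.21 at 9m, -1.74 ± 0.21 at 12m and -1.55 ± 0.21 (adjusted p = 5.2e-09) at 18m. At 18m the control rats had 2198, 3311, 3607, 3633 and 3650.4 and the CA rats 812, 1041, 1084, 1278 and 1289.8, so all CA rats lay below all controls although both groups were higher than at 1m. The difference at 18m minus that at 5j was -0.89 ± 0.30 (adjusted p = 0.17), and no member passed the test of that change over time (0.726% of all probe sets passed). The call at 5j was also lost without scaling of the arrays, with array weights, with suffix B as a covariate and with only the groups of the contrast in the fit. Among sections with suffix B the 5j difference was -0.47 (adjusted p = 0.29) and among those without it -0.42 (adjusted p = 0.71). Leaving out 1 rat at a time ended the call at 5j in 5 of 10 cases: -0.60 without rat 4006 (adjusted p = 0.076), -0.63 without rat 4007 (adjusted p = 0.061), -0.61 without rat 4009 (adjusted p = 0.059), -0.63 without rat 4117 (adjusted p = 0.056) and -0.44 without rat 4118 (adjusted p = 0.21). At 1m the values with and without suffix B were -1.55 and -1.52. At 3m the value with suffix B was smaller, -0.97, where CA 3m holds only rat 4128.

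Its neighbour Ifitm1 fell at 1m and 3m. At 1m the control rats had 1055, 1136, 1261, 1783 and 1887 and the CA rats 517, 557, 758, 771 and 836, and the log2 difference was -1.01 ± 0.20 (adjusted p = 4.5e-05). The highest CA rat lay below the lowest control. At 3m the difference was -0.71 ± 0.20 (adjusted p = 0.006). Among sections with suffix B, where CA 3m holds only rat 4128, the 3m value was -0.06. At 5j, 9m, 12m and 18m the differences were -0.39, -0.23, -0.41 and -0.31, and none passed. Without control rat 4040 the 18m value was -0.11 ± 0.20 (adjusted p = 0.87).

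Irf1, the transcription factor, fell at 5 of 6 times. At 1m its intensities were 411, 513, 545, 696 and 794 in controls and 234, 241, 242, 329 and 368 in CA rats, and the groups did not overlap. The log2 difference was -0.99 ± 0.17 (adjusted p = 4.5e-06) at 1m and -0.79 ± 0.17 (adjusted p = 0.00034) at 3m. It was -0.57 ± 0.17 (adjusted p = 0.025) at 9m, -0.59 ± 0.17 (adjusted p = 0.013) at 12m and -0.67 ± 0.17 (adjusted p = 0.0049) at 18m. At 5j the value was -0.44 ± 0.17 (adjusted p = 0.082). Among sections with suffix B, where CA 3m holds only rat 4128, the 3m value was -0.76. The call at 9m did not hold without some single rats: it was -0.53 without rat 4025 (adjusted p = 0.069), -0.53 without rat 4026 (adjusted p = 0.069), -0.56 without rat 4027 (adjusted p = 0.054), -0.46 without rat 4132 (adjusted p = 0.13), -0.51 without rat 4133 (adjusted p = 0.073) and -0.52 without rat 4134 (adjusted p = 0.073).

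Of the immunoproteasome subunits, Psmb8 passed at some times and Psmb9 at none. Psmb8 fell at 1m, where controls had 1048, 1185, 1350.3, 1728 and 1882 and CA rats 633, 637, 669, 727 and 922, a log2 difference of -0.96 ± 0.20 (adjusted p = 0.00012). It fell again at 3m, by 0.81 ± 0.20 (adjusted p = 0.0017), and did not pass at 5j, 9m, 12m or 18m. Among sections with suffix B, where CA 3m holds only rat 4128, the 3m Psmb8 value was -0.20. Psmb9 lay at 329, 342, 387, 471 and 607 in controls and 300.1, 308, 336, 375 and 462 in CA rats at 1m, which overlap. Its differences ran from -0.23 ± 0.19 (adjusted p = 0.48) at 1m, and the same at 3m to 2 decimals, to 0.09 ± 0.19 (adjusted p = 0.88) at 9m. The difference between these genes was not itself tested. Psmb10, the remaining immunoproteasome subunit, fell at 1m by 0.57 ± 0.20 (adjusted p = 0.035) and at 18m by 0.66 ± 0.20 (adjusted p = 0.022). Psmb5 and Psmb7, catalytic subunits of the standard proteasome, did not pass at 1m, 3m or 18m.

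Of the class II genes, Cd74 fell at 1m, 3m and 18m. At 1m the controls had 1653, 1894, 2126, 2721 and 3194 and the CA rats 725, 891, 912, 1154 and 1309, without overlap. The means were 2318 ± 629.9 (SD, n = 5) and 998 ± 232 (SD, n = 5), 2.27-fold lower on the fitted scale, with a log2 difference of -1.18 ± 0.27 (adjusted p = 0.0007). It was -1.19 ± 0.27 (adjusted p = 0.00066) at 3m and -1.06 ± 0.27 (adjusted p = 0.0047) at 18m. At 18m it was -0.84 without rat 4045 (adjusted p = 0.057) and -0.86 without rat 4150 (adjusted p = 0.052). At 9m and 12m it was -0.28 and -0.29 and did not pass. Without CA rat 4137 the 12m value was -0.49 ± 0.28 (adjusted p = 0.33). Among sections with suffix B, where CA 3m holds only rat 4128, the 3m Cd74 value was -0.56. The call of Cd74 at 1m did not hold among sections without suffix B. RT1-Ba (1370822_at) showed 294, 348, 437, 753 and 1183 in controls and 158, 249.7, 300.2, 389 and 446 in CA rats at 1m, a difference of -0.80 ± 0.38 (adjusted p = 0.15). Its largest difference was -0.91 ± 0.38 (adjusted p = 0.093) at 3m. RT1-Ba varied more within groups than the other genes, with an SD of 0.61 on the log2 scale against 0.27 to 0.44 for the rest. The dim probe set 1377334_at passed at no time.

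**Figure D1:**
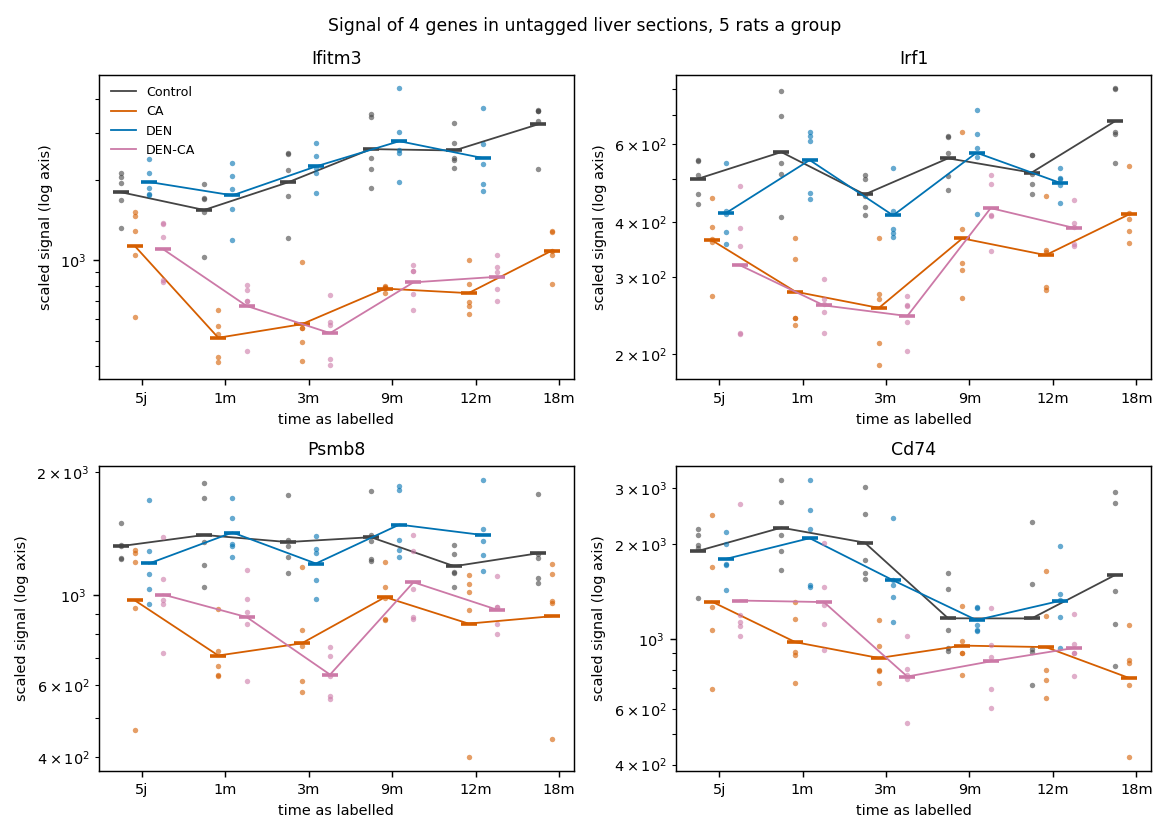
Scaled intensity of Ifitm3, Irf1, Psmb8 and Cd74 in the untagged section of each rat (points, log axis) by arm and time, with bars at the geometric mean of the group. At 1m the 5 CA rats lie below the 5 control rats for all 4 genes.

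**Figure D2:**
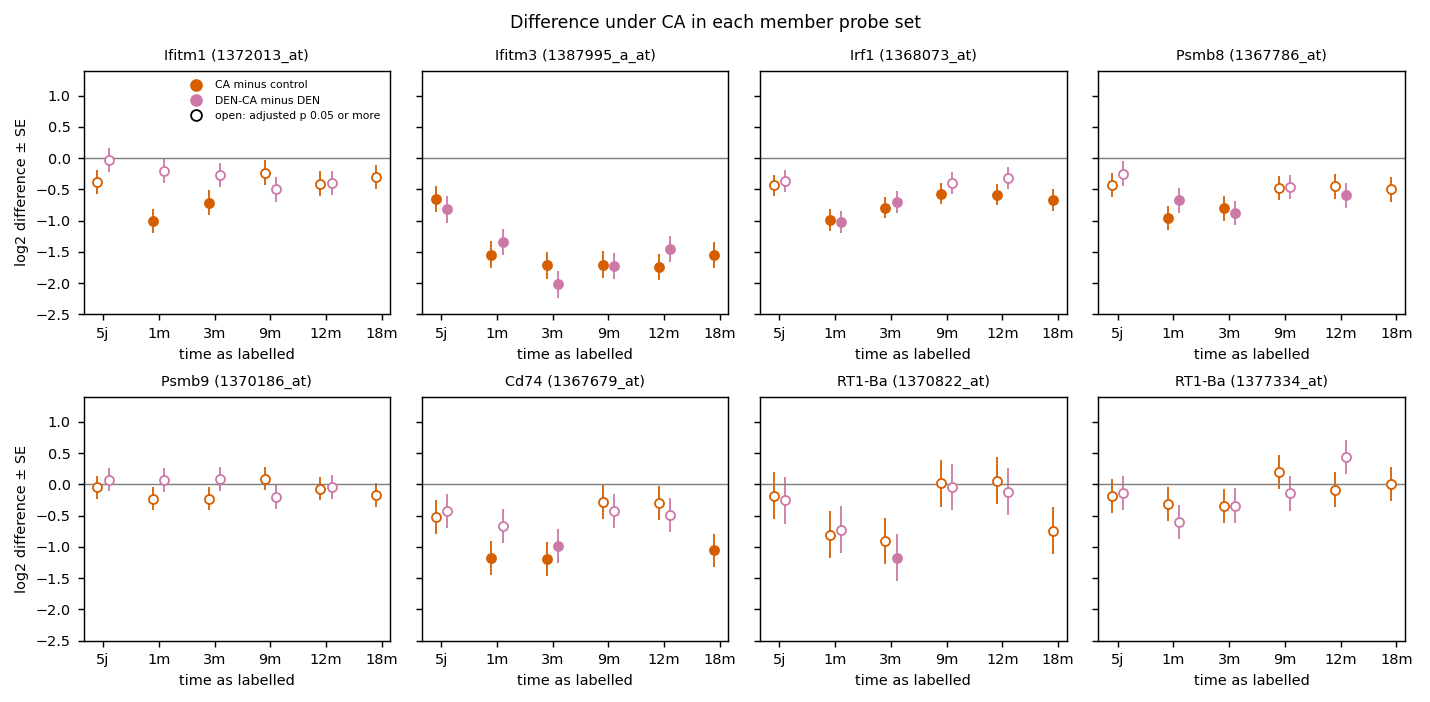
Log2 difference of CA minus control and of DEN-CA minus DEN for the 8 probe sets at each time, with bars of 1 SE and filled points where the adjusted p is below 0.05. Ifitm3 is below 0 and filled at all 6 times without DEN and at all 5 times after DEN.

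Genes around the members were read from lists, counted over the same fit. Among 12 tested genes of class II presentation, 6 fell and 1 rose with CA at 1m, with a list median of -0.44 against -0.02 for all probe sets. RT1-DMa, which helps to load class II molecules, differed by -0.95 ± 0.17 (adjusted p = 5.5e-06), and RT1-Bb, the beta chain that partners RT1-Ba, by -1.14 ± 0.25 (adjusted p = 0.00036). Ctss, a lysosomal protease that trims the invariant chain, differed by -0.90 ± 0.20 (adjusted p = 0.00053). The gene that rose was Ctsd, another lysosomal protease, at 0.99 ± 0.13 (adjusted p = 2.8e-09). At 3m, 5 of the 12 fell and 2 rose, and at 18m only RT1-DMa fell, by 0.73 ± 0.17 (adjusted p = 0.0012), and none rose. These counts stand beside 14.4% of all probe sets past the threshold at 1m. Of 17 genes of class I presentation, 1 rose and 1 fell at 1m, a share near that background, and the list median was -0.03. The gene that rose was RT1-CE10, a class I molecule, at 0.58 ± 0.11 (adjusted p = 5.4e-05). Of 23 interferon-induced genes, 5 fell and none rose at 1m, among them Cxcl10, a chemokine, at -0.61 ± 0.19 (adjusted p = 0.014) and Gbp2, a guanylate-binding protein, at -0.70 ± 0.22 (adjusted p = 0.016). Of 16 genes of interferon signalling, again near the background, 3 fell at 1m: Stat3 at -1.06 ± 0.29 (adjusted p = 0.0052), the interferon gamma receptor chain Ifngr1 at -0.64 ± 0.17 (adjusted p = 0.0032) and Irf9 at -0.41 ± 0.13 (adjusted p = 0.018). Without scaling of the arrays, none of these lists kept a gene that fell at 1m, while the class II median was -0.38 against 0.02 for all probe sets.

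Among 1m, 3m and 18m, markers of macrophages and Kupffer cells fell with CA most often at 1m. Of 9 tested markers, 8 fell and none rose with CA at 1m, with a median of -0.69, among them Lyz2 at -0.91 ± 0.16 (adjusted p = 3.9e-06) and the Kupffer cell receptor Clec4f at -0.85 ± 0.24 (adjusted p = 0.0075). Their summed intensity was 5520 to 9142 in controls and 3527 to 4999 in CA rats at 1m, which do not overlap. At 3m, 3 of 9 fell and the sums were 4987 to 10113 and 4291 to 6532. At 18m, 1 of 9 fell (Lyz2) and the sums were 5309 to 12878 and 5913 to 6931. The members that passed at 18m were Ifitm3, Irf1 and Cd74. Cytotoxic lymphocyte markers fell in 1 of 9 cases at 1m (Ccl5) and in none at 3m and 18m. The part of these cells in the results for the members was not tested.

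DEN alone was compared with control at 6 times. None of the 48 member values passed, and few probe sets did: 0.307% at -8, 0.0403% at 5j, 0.00807% at 3m and 0% at 1m, 9m and 12m. At 1m, 9m and 12m, 548, 458 and 332 probe sets had an unadjusted p under 0.05 in the limma test. Ifitm3 at 1m was 1795 ± 439 (SD, n = 5) in DEN rats, with a difference from control of 0.18 ± 0.21 (adjusted p = 1).

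After DEN, members were again lower in rats given CA. Of 40 values of DEN-CA against DEN (8 probe sets at 5 times), 12 were lower and none higher, with 10.5%, 16.2%, 14.3%, 6.99% and 7.04% of all probe sets past the threshold at 5j, 1m, 3m, 9m and 12m. Ifitm3 fell at all 5 times, and most at 3m. There DEN rats had 1777, 2128, 2217, 2465 and 2751 and DEN-CA rats 403, 426, 572, 589 and 742, a 4.06-fold lower level and a log2 difference of -2.02 ± 0.21 (adjusted p = 6.6e-14). At 5j, 1m, 9m and 12m its differences were -0.82 ± 0.21, -1.34 ± 0.21, -1.73 ± 0.21 and -1.45 ± 0.21. Irf1 fell at 1m, by 1.03 ± 0.17 (adjusted p = 1.7e-06), and at 3m, by 0.70 ± 0.17 (adjusted p = 0.0018). Psmb8 fell at 1m (-0.67 ± 0.20), 3m (-0.88 ± 0.20) and 12m (-0.60 ± 0.20). Cd74 fell at 3m, where DEN rats had 1132, 1359.9, 1487, 1534 and 2415 and DEN-CA rats 541, 746, 771, 802 and 1019, a difference of -0.99 ± 0.27 (adjusted p = 0.0059). RT1-Ba (1370822_at), which did not pass for CA without DEN, fell at 3m. Its intensities were 263, 296, 473, 609 and 821 in DEN rats and 150.2, 188, 188, 189 and 223 in DEN-CA rats, and the difference was -1.17 ± 0.38 (adjusted p = 0.022). Ifitm1, Psmb9 and 1377334_at passed at none of the 5 times. Among sections without suffix B, the DEN-CA arm keeps only rat 4090 at 1m and rat 4098 at 3m. There the calls of Psmb8 and Irf1 at both times, and of Cd74 and RT1-Ba at 3m, did not hold.

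In the lists, class II presentation had 5 of 12 genes lower and 1 higher at 1m and 4 lower and 1 higher at 3m, with medians of -0.37 and -0.20. RT1-Bb differed by -0.96 ± 0.25 (adjusted p = 0.0029) at 1m and Ctsd by 0.60 ± 0.13 (adjusted p = 0.00039). Interferon signalling had 5 of 16 genes lower and 1 higher at 3m, among them Irf9 at -0.58 ± 0.13 (adjusted p = 0.00038) and the receptor chain Ifnar1 at -0.57 ± 0.14 (adjusted p = 0.002). Of 23 interferon-induced genes, 1 rose and 1 fell at 1m and none passed at 3m. Psmb5 and Psmb7 rose at 1m, by 0.56 ± 0.12 and 0.70 ± 0.17, and at 3m, by 0.37 ± 0.12 and 0.51 ± 0.17, at times when Psmb8 fell. Of the 9 macrophage markers, none passed at 1m and 1 fell at 3m (Csf1r, -0.56 ± 0.18). Their sums at 3m were 4849 to 8264 in DEN and 4222 to 5438 in DEN-CA rats, which overlap, and their part in the fall of the members was not tested. The DEN rats are the controls of this comparison, so it shares no rat with the comparison of CA with control.

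The effect of CA after DEN minus that without DEN passed for none of the 8 probe sets at any of the 5 times or in their mean. Of all probe sets, 0.0403% passed at 5j, 0% at 1m, 0.218% at 3m, 0.00807% at 9m, 0% at 12m and 0.0403% in the mean of the 5 times. At 1m and 12m, 1130 and 454 had an unadjusted p under 0.05. For Ifitm3 the mean difference of the effects was 0.00 ± 0.13 (adjusted p = 1), for Irf1 0.11 ± 0.11 (adjusted p = 0.79) and for Cd74 0.10 ± 0.17 (adjusted p = 0.89). A p that misses the threshold does not show that the effects were alike in both arms.

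The rev groups were set against the groups of the same arm and time without rev. CA rev rats at 18m were higher than CA rats at 18m for 5 of 8 probe sets, where 14.7% of all probe sets passed. Ifitm3 was 812, 1041, 1084, 1278 and 1289.8 in CA rats and 3448, 3679, 4225 and 4822 in CA rev rats. All 4 rev rats lay above all 5 others, and Ifitm3 rose by 1.86 ± 0.22 (adjusted p = 6.7e-11), 3.63-fold. Cd74 rose by 1.11 ± 0.29 (adjusted p = 0.0033), from 424, 714, 836, 861 and 1106 to 1354, 1589, 1712 and 2042. Psmb8 rose by 1.02 ± 0.21 (adjusted p = 0.00016), Irf1 by 0.80 ± 0.18 (adjusted p = 0.00072) and Ifitm1 by 0.62 ± 0.21 (adjusted p = 0.029). The call for Ifitm1 did not hold without some single rats: its difference was 0.58 without rat 4144 (adjusted p = 0.067), 0.52 without rat 4146 (adjusted p = 0.11), 0.63 without rat 4148 (adjusted p = 0.057), 0.61 without rat 4149 (adjusted p = 0.069) and 0.60 without rat 4150 (adjusted p = 0.057). Psmb9 and RT1-Ba did not pass, at 0.16 ± 0.20 and 0.95 ± 0.40.

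Control rats with rev were also compared with control rats at 18m. With 3 control rev rats, 4 of 8 probe sets rose (Ifitm3, RT1-Ba, Ifitm1 and Irf1) and 9.79% of all probe sets passed. Ifitm3 was 2198, 3311, 3607, 3633 and 3650.4 without rev and 5419.7, 5642 and 7113 with it, and rose by 0.89 ± 0.24 (adjusted p = 0.0083). RT1-Ba (1370822_at) rose by 1.51 ± 0.43 (adjusted p = 0.013), from 217, 244, 336, 965 and 1049 to 876, 979.7 and 2747. Ifitm1 rose by 0.74 ± 0.23 (adjusted p = 0.021) and Irf1 by 0.59 ± 0.20 (adjusted p = 0.04). Cd74 and Psmb8 did not pass, at 0.89 ± 0.31 (adjusted p = 0.053) and 0.60 ± 0.23 (adjusted p = 0.079), and their ranges overlapped. Without control rat 4040 alone, Cd74 passed at 1.07 ± 0.32 (adjusted p = 0.016), and without control rev rat 4043 it was 0.51 ± 0.35 (adjusted p = 0.41). Leaving out rats 4040, 4043 and 4111, the 3 highest in cytotoxic lymphocyte markers, an alternative chosen after seeing the data, gave 1.01 (adjusted p = 0.02) for Ifitm3 and 0.81 (adjusted p = 0.042) for Ifitm1. Without them Irf1 was 0.44 (adjusted p = 0.25) and RT1-Ba 1.28 (adjusted p = 0.095), and neither passed. Single rats left out, among them rats outside these 3, also ended calls. Irf1 was 0.52 without rat 4036 (adjusted p = 0.097), 0.57 without rat 4038 (adjusted p = 0.081), 0.57 without rat 4039 (adjusted p = 0.079), 0.38 without rat 4043 (adjusted p = 0.34) and 0.64 without rat 4046 (adjusted p = 0.074). RT1-Ba was 1.30 without rat 4038 (adjusted p = 0.06), 1.26 without rat 4039 (adjusted p = 0.07) and 0.99 without rat 4043 (adjusted p = 0.23). Ifitm1 was 0.54 without rat 4036 (adjusted p = 0.12), 0.71 without rat 4038 (adjusted p = 0.051) and 0.61 without rat 4043 (adjusted p = 0.15), and Ifitm3 0.77 without rat 4046 (adjusted p = 0.079). No member passed when only the groups of this contrast entered the fit, or without scaling of the arrays.

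When CA rev rats were set against control rev rats at 18m, no member passed the test, and 0.734% of all probe sets passed. The Ifitm3 intensities of 3448 to 4822 in CA rev rats lay below the 5419.7 to 7113 of control rev rats, with a log2 difference of -0.58 ± 0.25 (adjusted p = 0.41). For Psmb9, Cd74 and RT1-Ba (1370822_at), too, all CA rev rats lay below all control rev rats. Their differences were -0.51 ± 0.23 (adjusted p = 0.42), -0.83 ± 0.33 (adjusted p = 0.3) and -1.30 ± 0.45 (adjusted p = 0.2). The share of all probe sets with such a gap between these small groups was not counted. Of the 8 probe sets, 5 had an unadjusted p under 0.05 in the limma test, as did 1178 of all 12393. Without control rev rat 4043, Psmb9 was -0.27 ± 0.25 (adjusted p = 1), Cd74 -0.46 ± 0.37 (adjusted p = 1) and RT1-Ba -0.79 ± 0.51 (adjusted p = 1). The effect of CA with rev minus that without rev at 18m was 0.97 ± 0.33 (adjusted p = 0.12) for Ifitm3 and passed for no member, where 1.46% of all probe sets passed.

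In the DEN-CA arm at 12m, rev rats were higher for Ifitm1, Ifitm3 and Irf1, with 12.8% of all probe sets past the threshold. Ifitm3 was 700.0, 783, 907, 939.8 and 1044 without rev and 1519, 1920.1, 1926, 2375 and 2454 with rev, and rose by 1.19 ± 0.21 (adjusted p = 1.4e-05). Irf1 rose by 0.75 ± 0.17 (adjusted p = 0.0011) and Ifitm1 by 0.62 ± 0.20 (adjusted p = 0.024). Without the 3 rats named above, Ifitm1 was 0.51 (adjusted p = 0.083), and 0.51 without rat 4111 (adjusted p = 0.097) alone. For DEN-CA rev against DEN rev rats no member passed the test, at -0.13 ± 0.20 (adjusted p = 1) for Ifitm3, and 0.121% of all probe sets passed. The CA effect after DEN was smaller with rev than without for Ifitm3, by a difference of 1.32 ± 0.29 (adjusted p = 0.0019), where 2.3% of all probe sets passed. It was 1.25 (adjusted p = 0.005) without the 3 rats. No other member passed that test. Without CA, rev was not followed by a passing difference at 12m: DEN rev against DEN, control rev against control and DEN rev against control rev passed for no member, with 0.0323%, 0.121% and 0.00807% of all probe sets past the threshold.

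**Figure D3:**
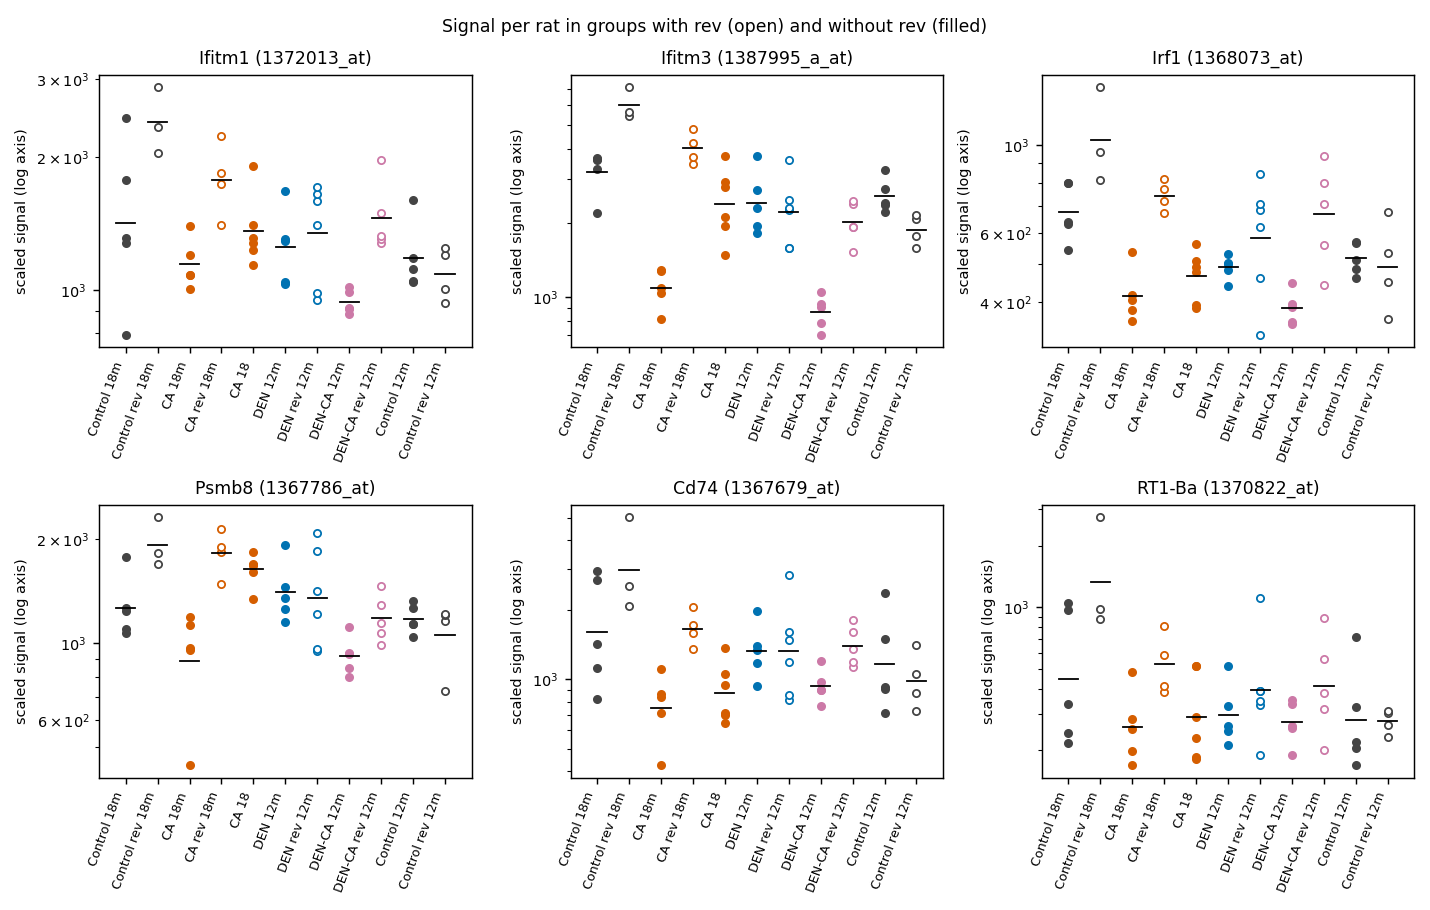
Scaled intensity of 6 member genes per rat (points, log axis) in groups without rev (filled) and with rev (open) at 12m and 18m, with a line at the geometric mean. For Ifitm3 the 4 CA rev rats lie above the 5 CA rats at 18m, and the 5 DEN-CA rev rats above the 5 DEN-CA rats at 12m.

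Other genes and cell markers rose in the same rev groups. Beside the list counts stand the shares of all probe sets past the threshold. These were 14.7% for CA rev against CA, 9.79% for control rev against control at 18m and 12.8% for DEN-CA rev against DEN-CA. In CA rev against CA at 18m, 9 of 23 interferon-induced genes rose and none fell, with a median of 0.38 against 0.01 for all probe sets. Ifi30, a lysosomal thiol reductase, rose by 0.63 ± 0.15 (adjusted p = 0.0012) and Bst2, a membrane protein that tethers virus particles, by 1.01 ± 0.26 (adjusted p = 0.0038). Of 12 class II genes, 4 rose, and of 9 macrophage markers, 6 rose, with C1qa at 0.91 ± 0.21 (adjusted p = 0.00068). The macrophage sums were 5913 to 6931 in CA and 8494 to 12582 in CA rev rats. In control rev against control at 18m, 7 of 12 class II genes, 8 of 9 macrophage markers and 8 of 9 cytotoxic lymphocyte markers rose and none of these fell. Macrophage sums were 5309 to 12878 without and 13148 to 19860 with rev, and cytotoxic lymphocyte sums 848 to 9946 and 1883 to 23072. The highest of both sums were those of control rat 4040 without rev and rat 4043 with rev. List counts without these rats are not given. In DEN-CA rev against DEN-CA at 12m, 7 of 9 macrophage and 5 of 9 cytotoxic lymphocyte markers rose, and 3 of 12 class II genes rose and 1 fell. The macrophage sums there were 4821 to 6297 and 6539 to 13465, with no overlap. Rat 4111 had the highest macrophage and cytotoxic lymphocyte sums of that rev group, and list counts without it are not given. The part of these cells in the rise of the members was not tested.

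CA 18 rats, whose label lacks a unit, were compared with both groups of 18m. Against controls, 2 of 8 member probe sets passed, a share near the 23.2% of all probe sets that did. Cd74 fell by 0.85 ± 0.26 (adjusted p = 0.009) and Irf1 by 0.52 ± 0.16 (adjusted p = 0.014). Without the 3 rats named above, of which control rat 4040 is in this comparison, Cd74 was -0.67 (adjusted p = 0.062) and no longer passed, and Irf1 was -0.46 (adjusted p = 0.043). Against CA 18m, Ifitm3 rose by 1.12 ± 0.20 (adjusted p = 7.2e-05) and Psmb8 by 0.86 ± 0.19 (adjusted p = 0.0015), where 7% of all probe sets passed. The 6 CA 18 rats had Ifitm3 intensities from 1478 to 3731 with a median of 2445, all above the highest CA 18m rat at 1289.8. The macrophage sums were 7169 to 12020 in CA 18 rats and 5913 to 6931 in CA 18m rats, which do not overlap; their part was not tested.

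In control rats, Ifitm3 rose from 1325, 1676, 1938, 2051 and 2128 at 5j to the 18m values given above, by 0.83 ± 0.21 (adjusted p = 0.0056). 7.22% of all probe sets passed between these times, and no other member did. Between 12m and 5j, where 6.02% of all probe sets passed, no member passed, with Ifitm3 at 0.51 ± 0.21 (adjusted p = 0.13).

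Ordered by its group mean on the log2 scale, Ifitm3 was lowest in CA 1m (519 ± 96.5), DEN-CA 3m (547 ± 138), CA 3m (602 ± 219), DEN-CA 1m (687 ± 136) and CA 12m (763 ± 151). Then came CA 9m (782 ± 16.4), DEN-CA 9m (834 ± 129), DEN-CA 12m (875 ± 135), CA 18m (1101 ± 196), DEN-CA 5j (1127 ± 275) and CA 5j (1185 ± 368), as mean ± SD. These 11 groups are all the groups given CA without rev apart from CA 18. The lowest groups without CA followed, Control 1m at 1575 ± 340.0, Control -8 at 1690.3 ± 358, DEN -8 at 1756 ± 524, DEN 1m at 1795 ± 439 and Control 5j at 1823 ± 327. The middle held Control rev 12m at 1891 ± 267, Control 3m at 2023 ± 554, DEN 5j at 1977 ± 277, DEN-CA rev 12m at 2039 ± 382, DEN rev 12m at 2298 ± 746 and DEN 3m at 2268 ± 366. CA 18 at 2495 ± 811, DEN 12m at 2498 ± 769, Control 12m at 2599.6 ± 416, Control 9m at 2689 ± 752 and DEN 9m at 2894 ± 919 were higher. The highest were Control 18m (3279.8 ± 621), CA rev 18m (4043 ± 613) and Control rev 18m (6058 ± 920.2). Most neighbours in this order differ by less than the larger of their SDs. Larger steps lie between DEN-CA 12m and CA 18m, between CA 5j and Control 1m, and between the last 3 groups. Of the variance of Ifitm3 between rats, 88.4% lay between groups.

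The other members used less of their range for the groups: 75.1% of the variance lay between groups for Irf1, 62.3% for Psmb8, 60.2% for Cd74, 57.1% for Ifitm1, 42.7% for RT1-Ba (1370822_at) and 35.9% for Psmb9. Control rev 18m had the highest group mean for the 7 genes, the dim RT1-Ba probe set excepted. The lowest was CA 1m for Ifitm1, DEN-CA 3m for Irf1, Psmb8 and RT1-Ba, CA 18m for Cd74 and DEN 3m for Psmb9. Across the 30 group means, which share the scaling of the arrays, Cd74 and RT1-Ba (1370822_at) had r = 0.93, and r = 0.76 over 148 rats after removing group means. The 2 RT1-Ba probe sets had r = 0.33 and -0.02, so the dim one did not follow the other.

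The genes whose 30 group means ran most like a member's were found among 8726 genes by Pearson's r. For Cd74 these were RT1-Da (0.98), RT1-Bb (0.97) and RT1-Db1 (0.96), other class II chains, and for RT1-Ba (1370822_at) RT1-Bb (0.95), RT1-Da (0.95) and RT1-Db1 (0.94). For Ifitm1 they were Ctss (0.96), C1qa (0.95) and Clec4f (0.95), of which C1qa and Clec4f stand in the macrophage marker list. For Ifitm3 they were Dap (0.94), Hyls1 (0.92) and Sh3gl3 (0.92), and for Irf1 Dop1b (0.92), Slc28a2 (0.91) and Csf1r (0.91). Psmb8 ran most like Serpina10 (0.92), Arid1a (0.90) and Fcna (0.90), and Psmb9 like Cd68 (0.86), Fcer1g (0.85) and Sumo2 (0.85). Csf1r, Cd68 and Fcer1g stand in the macrophage marker list too.

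TU sections were compared with the untagged section of the same rat, in 7 DEN-CA and 9 CA rats, rev and CA 18 rats included. The TU sections of a rat were averaged, and limma's test was run on 1 difference per rat over 11566 probe sets. In DEN-CA rats, 4 members fell in TU sections and none rose, where 29.7% of all probe sets passed. Psmb8 was lower in 7 of 7 rats, with log2 differences of -1.93, -1.76, -1.73, -1.36, -1.03, -1.01 and -0.29, and fell by 1.30 ± 0.26 (adjusted p = 0.0016), 2.46-fold. In rat 4105 at 9m it was 1284 in the untagged and 318 in the TU section, and in rat 4109 at 12m 1115 and 911. Ifitm3 differed by -0.74 ± 0.21 (adjusted p = 0.011), Irf1 by -0.56 ± 0.13 (adjusted p = 0.0028) and Ifitm1 by -0.54 ± 0.14 (adjusted p = 0.0059), each lower in 7 of 7 rats. Psmb9 did not pass, at -0.12 ± 0.15 (adjusted p = 0.57), lower in 4 of 7 rats. The class II genes leaned the other way without passing: Cd74 was 0.57 ± 0.28 (adjusted p = 0.13) and higher in 6 of 7 rats, and RT1-Ba (1370822_at) 0.51 ± 0.28 (adjusted p = 0.18) and higher in 5 of 7. Without pairing by rat, 2 of the 4 calls held, Psmb8 at -1.30 (adjusted p = 0.00055) and Irf1 at -0.56 (adjusted p = 0.017).

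The list counts for DEN-CA rats stand beside 29.7% of all probe sets past the threshold. Of 23 interferon-induced genes, 7 fell and 2 rose in TU sections, and 6 of 17 class I genes fell and 2 rose. RT1-S3, a class I molecule, differed by -1.33 ± 0.21 (adjusted p = 0.0012), and Usp18, an inhibitor of interferon signalling, by -0.99 ± 0.22 (adjusted p = 0.0024). Psmb10, a subunit of the same immunoproteasome as Psmb8, rose by 1.02 ± 0.20 (adjusted p = 0.0015). Of 15 signalling genes, 5 fell and 1 rose, with Irf9 at -0.62 ± 0.12 (adjusted p = 0.0015). Of 12 class II genes, 2 fell (Ctss and Ctsb) and 1 rose (Ifi30), a share near that background. Of 9 macrophage markers, 5 fell and none rose, with C1qa at -1.09 ± 0.15 (adjusted p = 0.0012) and Clec4f at -2.31 ± 0.54 (adjusted p = 0.0034), and of 7 cytotoxic lymphocyte markers 3 fell. The part of these cells in the fall of Psmb8, Ifitm3, Irf1 and Ifitm1 was not tested.

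In CA rats no member passed, and 0% of all 11566 probe sets did, while 2522 had an unadjusted p under 0.05. This changed without rat 4137. Cd74 differed by -1.35, 0.54, 0.63, 1.04, 1.15, 1.34, 1.53, 1.85 and 1.97 in the 9 rats, higher in 8 of 9, with a mean of 0.97 ± 0.25 (adjusted p = 0.067). The rat that went the other way was 4137, where Cd74 was 1644 in the untagged, 630.5 in the TU and 658 in the PERI section. Whether the sections of rat 4137 carry the right labels was not tested. Psmb8 in that rat was 401, 853 and 946, again opposite to most other rats, and its untagged section was the lowest of the CA 12m group. Without rat 4137, 2438 probe sets passed and 4 members did: Cd74 at 1.26 ± 0.17 (adjusted p = 8.3e-05), RT1-Ba (1370822_at) at 1.31 ± 0.22 (adjusted p = 0.00034), Ifitm3 at -0.79 ± 0.17 (adjusted p = 0.0026) and Psmb8 at -0.72 ± 0.20 (adjusted p = 0.016). With all 9 rats, RT1-Ba was 1.11 ± 0.25 (adjusted p = 0.063), Ifitm3 -0.65 ± 0.18 (adjusted p = 0.072) and Psmb8 -0.52 ± 0.23 (adjusted p = 0.19). Leaving out any other single CA rat gave no passing member. Rat 4137 stood out by its own Cd74 and Psmb8 values, so the tests without it are not independent of those values. With all 9 rats but without pairing by rat, Cd74 passed at 0.97 (adjusted p = 0.023) and RT1-Ba at 1.11 (adjusted p = 0.017). Rat 4150 also had Psmb8 higher in its TU section, 860.1 against 443, but Cd74 in it ran with the other rats, 1592 against 424. In the comparison of CA with control at 12m, which uses the untagged section of rat 4137, Ifitm3 was -1.71 ± 0.22 (adjusted p = 1.7e-09) and Irf1 -0.59 ± 0.18 (adjusted p = 0.027) without that rat.

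**Figure D4:**
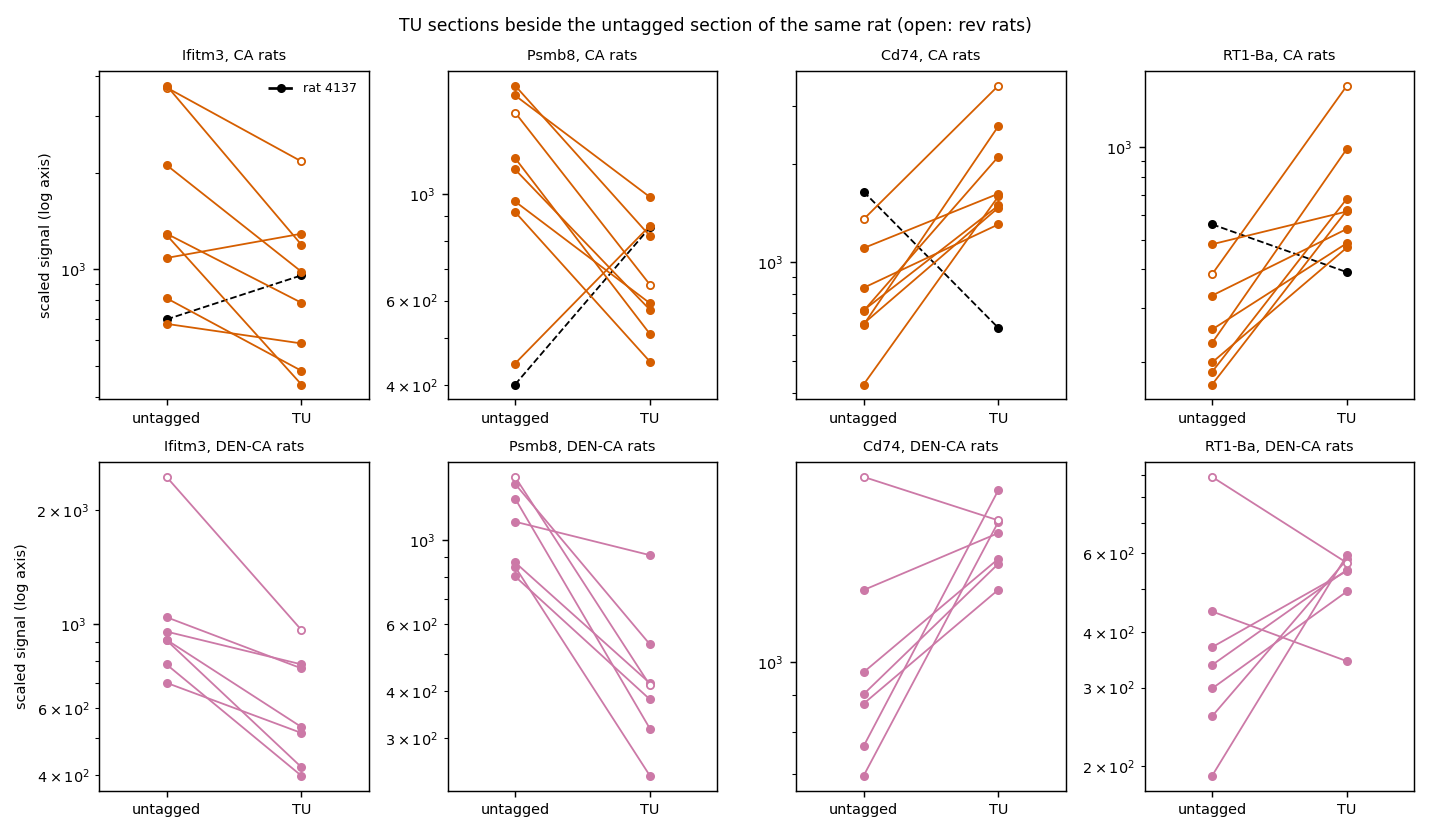
Scaled intensity of Ifitm3, Psmb8, Cd74 and RT1-Ba (1370822_at) in the untagged and TU sections of each rat (log axis), with a line per rat, rat 4137 in black dashes and rev rats as open points. Psmb8 goes down in 7 of 7 DEN-CA rats, and Cd74 goes up in 8 of 9 CA rats, all but rat 4137.

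The TU difference in DEN-CA rats minus that in CA rats passed for no member and for 0% of all probe sets (1766 had an unadjusted p under 0.05), with Psmb8 at -0.78 ± 0.35 (adjusted p = 0.3). PERI sections were available from 5 rats. Against the own untagged section no member passed and 0% of 10174 probe sets did (1 at an unadjusted p under 0.05), with Psmb8 at 0.20 ± 0.21 (adjusted p = 0.98) and Cd74 at -0.03 ± 0.22 (adjusted p = 0.99). Without rat 4137, which is 1 of the 5, both turned sign, to -0.05 ± 0.12 (adjusted p = 0.96) and 0.28 ± 0.16 (adjusted p = 0.9), and no member passed. TU against PERI sections of the same 5 rats passed for no member and for 0% of 10516 probe sets (2580 at an unadjusted p under 0.05), with Psmb8 at -0.68 ± 0.22 (adjusted p = 0.16) and RT1-Ba (1370822_at) at 0.83 ± 0.24 (adjusted p = 0.16).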

How the data were processed

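RNA of rat liver sections was measured on Affymetrix arrays. The deposited values are intensities on a linear scale, made with MAS5 per the submitters' processing notes; its version and scaling target are not given in the sources used here. Probe sets took gene symbols from the platform annotation through Entrez identifiers to RefSeq (12748), or from the array (35); 312 had several symbols and 2827 none. Each array was scaled to the median of all array medians, 25 was added, and log2 taken. Probe sets that exceeded the 40th percentile in 3 or more arrays of a fit were tested with limma 3.58.1 in R 4.3.3 (lmFit, eBayes with trend). The untagged fit had 118 residual degrees of freedom, the TU fit 14 and the PERI fit 4. The steps were tested on simulated data.

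Named genes are the members, at most 4 genes of a list per comparison by smallest p among those past the threshold, and the 3 genes most like a member. Psmb5 and Psmb7 are named beyond it where they did not pass with CA. The members and lists were chosen with earlier results of these data known. Alternatives covered offset, scaling, filter, array weights, suffix B, single rats and pairing. Sections with the same rat number come from the same animal, which is where the pairing of TU and PERI sections comes from. The deviations of a rat's 2 sections from their group means correlated at -0.56 to 0.47 (median 0.23), and 7 of 16 TU sections correlated best with their own untagged section. The number of arrays limits the precision.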

Additional observations from a re-analysis of the deposited data

Results flagged for a closer look

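Of 248 groups of 4 to 10 sections or differences, 21 held a value far from the others of its group, by the gap to its nearest neighbour as a share of the range. Chance gives about 1 in 20 groups.

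DEN-CA rat 4089 at 5j was high in both class II genes: Cd74 was 2682 in rat 4089 against 1021 to 1194 in the others, and RT1-Ba (1370822_at) was 979 in rat 4089 against 228 to 393 in the others. Control rat 4029 at 12m was high in Ifitm1, 1596 in rat 4029 against 1046 to 1184 in the others, and in RT1-Ba (1370822_at), 717 in rat 4029 against 170.1 to 326 in the others. RT1-Ba was also high in control 9m, 515 in rat 4025 against 207 to 281 in the others, and in DEN rev 12m, 1104 in rat 4081 against 189 to 392 in the others. DEN rat 4049 at -8 was low in Psmb9, 289 in rat 4049 against 502 to 573 in the others, and in the dim RT1-Ba probe set, 12.2 in rat 4049 against 55.6 to 67.7 in the others. That dim probe set was also low in DEN 9m, 12.4 in rat 4071 against 55.9 to 73.3 in the others.

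Ifitm1 was high in CA 18, 1911 in rat 4153 against 1139.5 to 1402 in the others, and low in DEN 5j, 745 in rat 4053 against 1111 to 1198 in the others. Ifitm3 was high in CA 3m, 980.3 in rat 4128 against 418 to 559 in the others, and low in control 18m, 2198 in rat 4039 against 3311 to 3650.4 in the others. Psmb8 was low in CA 12m, 401 in rat 4137 against 919 to 1119 in the others, and in control rev 12m, 726 in rat 4032 against 1163 to 1214 in the others. It was high in control 18m, 1772 in rat 4045 against 1067 to 1262 in the others. Psmb9 was high in control 3m, 715 in rat 4019 against 364 to 433 in the others, in DEN 12m, 713 in rat 4077 against 346 to 426 in the others, and in DEN-CA rev 12m, 836 in rat 4111 against 401 to 477 in the others.

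Among the TU differences of CA rats, Cd74 was -1.35 in rat 4137 against 0.54 to 1.97 in the others, and Psmb9 was 0.99 in rat 4150 against -0.17 to 0.31. The effect of CA after DEN at 12m differed between rats with and without rev for Ifitm3, by 1.32 on the log2 scale in limma's test of that difference (adjusted p = 0.0019).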

How the results depend on the processing

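Over 52 member values past the threshold and 886 alternative fits of them, 784 kept their direction and side of the threshold, 102 kept the direction but did not pass, and none turned. The number of members past the threshold changed in some comparisons, and the cause was not tested.

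Without scaling, the median of all probe sets moved to between -0.71 (CA at 3m) and 1.11 (CA after DEN minus without, 3m). The count then was 0 for CA at 5j, 1 at 1m, 8 at 3m and 1 at each of 9m, 12m and 18m. It was 0 for DEN-CA against DEN at 5j and 1m, 1 at 3m and 12m, and 5 for the difference of the CA effects at 3m. It was 1 for CA rev against CA, 0 for control rev against control at 18m, 6 for DEN-CA rev against DEN-CA, 0 for CA 18 against CA 18m and 2 for TU in CA rats. With quantile normalization it was 7 for control rev against control at 18m and 1 each for CA at 18m minus 5j, CA with rev minus without and control at 12m against 5j.

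With array weights it was 0 for CA at 5j, 2 for DEN-CA against DEN at 9m, 1 for CA with rev minus without, 5 for CA 18 against control, 1 for control at 12m against 5j and 4 for TU in CA rats. With only the groups of the contrast it was 0 for CA at 5j and for control rev against control at 18m. Without a filter it was 1 for DEN-CA against DEN at 12m; TU in CA rats had 3 with the 70th percentile filter and 1 with an offset of 100. An offset of 6 changed no count.

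With suffix B as a covariate the count was 0 for CA at 5j, 4 for DEN-CA against DEN at 9m, 2 for control at 18m against 5j and 1 at 12m against 5j. Within suffix B it was 0 for CA at 5j, 3m and 9m and for DEN-CA against DEN at 5j, where groups hold as few as 1 section. Without suffix B it was 0 for CA at 5j, 1 at 9m, and 1 for DEN-CA against DEN at 1m, 3m and 12m.

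On pairing, TU against untagged sections without the replicate block gave 2 members in CA rats and 2 in DEN-CA rats, and with the rat as a random replicate block 2 and 2 (within-rat correlation 0.13). Leaving out the rev rats changed no count by more than 1.5 times. Without the 3 rats high in cytotoxic lymphocyte markers, an alternative added after seeing the data, the count was 2 for control rev against control at 18m and 1 for CA 18 against control.

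Leaving out 1 rat at a time gave 0 to 1 for CA at 5j, 1 to 2 at 9m, 1 to 6 for control rev against control at 18m, 0 to 1 for CA at 18m minus 5j, 0 to 1 for control at 12m against 5j and 0 to 4 for TU in CA rats. It was not run for DEN against control, DEN-CA against DEN, the differences of the CA effects by DEN, the other rev comparisons at 12m, CA 18 and TU against PERI. Signal over background limits the dim RT1-Ba probe set.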
